A study of Mus musculus with 61 samples.

Results

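A set of genes that were well measured in the lacrimal glands of 8-week-old male NOD mice and lower at every later age was followed through the treated mice and the salivary glands. The members were chosen by their measured values: the array feature (a probe set of an Affymetrix whole-genome mouse array) had to carry a single gene symbol and a mean log2 value above 6 in untreated lacrimal glands at week 8, its untreated lacrimal means at weeks 12, 14 and 16 each had to lie at least 1.3 log2 units lower, and its week 8 mean had to lie less than 5 log2 units above that of the salivary glands of the same age. Of 45101 probe sets, 34958 had a single gene symbol, 8985 of these passed the week 8 level, and 115 probe sets of 92 genes met the whole rule. A further 6 probe sets met the fall but exceeded the salivary glands by too much, and 16 with the same fall had several gene symbols or none; neither group was followed.

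All mice were male NOD mice, a strain in which males develop lymphocytic inflammation of the lacrimal glands. Treated mice were injected intraperitoneally each week from week 8 with LTBR-Ig, a decoy that joins the mouse lymphotoxin-beta receptor to mouse IgG1, or with MOPC-21, a mouse IgG1 used as control. Lacrimal glands were taken at weeks 12 and 16 from 4 LTBR-Ig-treated and 4 MOPC-21-treated mice each, and from untreated mice at week 8 (4 mice), week 12 (3), week 14 (4) and week 16 (4), which gave 31 arrays. Salivary glands gave 30 arrays from the same kinds of groups, with 4 mice in each except the LTBR-Ig group at week 12, which had 2. Both lacrimal glands of a mouse were combined, the salivary samples combined the gland types of the neck, and every mouse carried the NOD background, so no group came from a strain without the disease. Untreated mice received no injection. In whole glands, fewer cells of a type and less RNA per cell cannot be told apart.

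The members fall into recognisable kinds of gene. Fibrillar collagens and the type IV collagens of basement membranes are made in bulk while tissue grows, with Serpinh1 as a collagen chaperone of the endoplasmic reticulum and Sparc as a secreted collagen-binding protein. Arntl (BMAL1) is a core transcription factor of the circadian clock, and Nfil3 and Dbp are clock output factors that act on the same DNA element, Nfil3 as a repressor and Dbp as an activator. Asns, Slc7a5, Aldh1l2 and Gpt2 take part in the supply of amino acids and 1-carbon units, which a gland that exports protein uses heavily. Car6 is the secreted carbonic anhydrase of tears and saliva, and the major urinary proteins, to which Mup5 belongs, are small lipid carriers whose levels differ between the sexes and change with hormones.

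Sorted by role, 16 of the probe sets belonged to matrix genes, 16 to genes of the cytoskeleton and growth signalling, 15 to lipid genes, 11 to clock and stimulus-induced genes, 10 to secreted products and the secretory pathway, 10 to transport and junction genes, 8 to transcription and chromatin genes, 7 to amino acid genes and 22 to none of these. The groups were drawn up after the values had been seen, and so were the members named beyond the naming rule given with the processing. Because the members had to differ between week 8 and the later untreated ages, those differences are given as descriptions with no test.

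The promoters of the members were searched for short motifs, and all 4 matches are shown, since those in Arntl, Nfil3 and Asns belong to genes described below. RefSeq sequence of the mouse build GRCm38.p6, from 250 bases before to 50 after each gene start, was at hand for 68 of the 92 genes. Each line runs 5′ to 3′ on the strand of the gene, with the matched letters in capitals.
Arntl, chr7:113207529-113207558, plus strand: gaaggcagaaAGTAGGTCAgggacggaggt
Nfil3, chr13:52981032-52981061, minus strand: cgctcggaacTGACCTACTaacacacatct
Asns, chr6:7693214-7693243, minus strand: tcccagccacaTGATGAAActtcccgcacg
Meg3, chr12:109540928-109540957, plus strand: gcagaatgcgcTGACGTCAaagaccacccc
The ROR element, AGTAGGTCA on either strand, is the site through which ROR activators and REV-ERB repressors (Nr1d1, Nr1d2) act on clock genes, and it was found in 2 of the 68 promoters (2.94%), those of Arntl and Nfil3, against 60 of 27025 promoters of all genes (0.222%). The amino acid response element, TGATGNAA on either strand and read by Atf4, was found in 1 of 68 (1.47%), in Asns, against 4.51% of all promoters. The cAMP response element TGACGTCA was found in 1 of 68, in Meg3, a long non-coding RNA, against 2.03% of all. The heat shock element and the D-box TTATGTAA matched none of the 68, against 0.662% and 1.11% of all. The motifs were chosen after values and sequences had been seen, and a match is a description of letters in this window.

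Over the 115 members, the untreated lacrimal means at week 8 ran from 6.02 to 14.4 log2 units, with a median of 7.66. The median fall from week 8 was 1.77 log2 units at week 12, 1.84 at week 14 and 1.83 at week 16. The rule asked for the fall at each of these ages, so no time course can be read from these medians. The mean of all members on an array was 7.94 to 8.01 in the 4 untreated glands at week 8, and 5.91 to 6.13, 5.97 to 6.13 and 5.85 to 6.16 at weeks 12, 14 and 16. Just inside the limit of the rule lay Caap1 (smallest of its 3 falls 1.311), Slc25a13 (1.311), Coq7 (1.310), Nat8f1 (1.307) and Hspa1b (1.306). Just outside lay Aen (1.299), Ttc25 (1.296), 1110019D14Rik (1.296), Tcn2 (1.291) and another probe set of Hmgn3 (1.287). The fall was therefore continuous across the limit. Other probe sets for the same genes that were above 6 at week 8 numbered 28, for 20 genes. All 28 had lower means at each later untreated age, 15 of them by at least 1 log2 unit at each. The smallest of the 3 falls ran from 0.06 to 1.68 log2 units over these 28, with a median of 1.02.

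**Figure D1:**
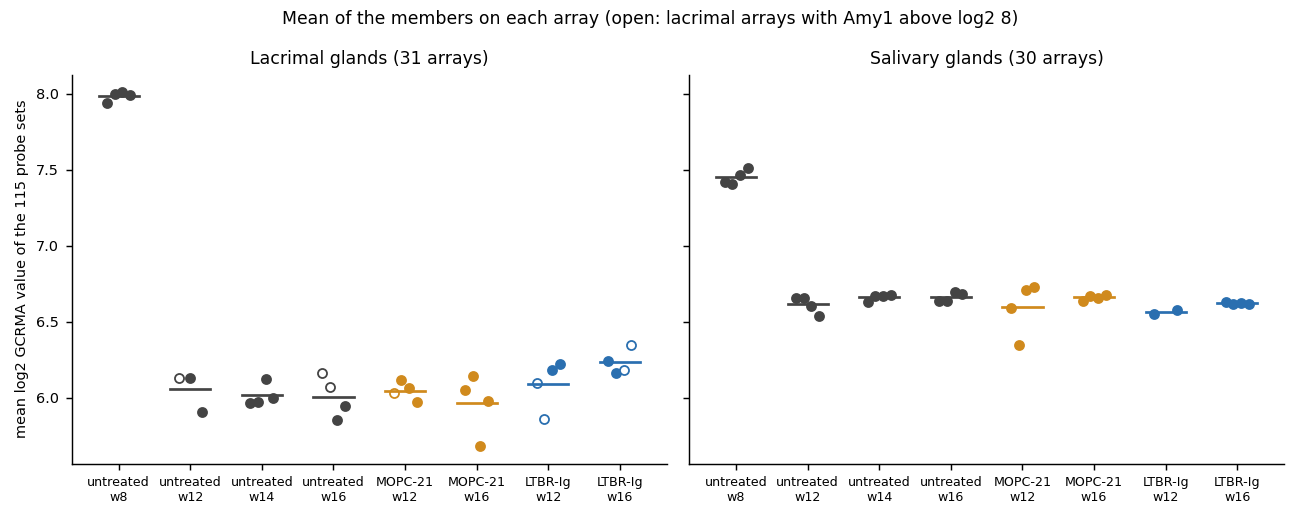
Mean log2 GCRMA value of the 115 members on each array, lacrimal glands left and salivary glands right, by treatment and week; points are arrays, lines are group means, and open points are lacrimal arrays with amylase Amy1 above log2 8. The 4 week 8 lacrimal arrays lie at 7.94 to 8.01, above all 27 later ones, and the salivary arrays step from 7.40 to 7.51 down to at most 6.73.

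Several features of the glands moved together with this fall. The B cell genes were at or near background at week 8, where the mean of the list ran from 2.87 to 3.39 log2 units, and at 7.41 to 8.18 in untreated lacrimal glands at week 16; all 12 tested genes of that list were at least 1 log2 unit higher, as were all 13 myeloid and all 9 T cell genes. Fibroblast genes, 9 tested of which Col1a1, Col1a2 and Col3a1 are members, had a median difference of -0.50 from week 8 to week 16. The Actin probe set at the 3′ end of the transcript read 12.6 to 12.8 at week 8 and 13.5 to 14.6 on all 27 later lacrimal arrays. Amy1, a product of salivary glands, lay above log2 8 on 8 of the 31 lacrimal arrays, none of them at week 8. The part of each of these in the fall was not tested, and any way in which the week 8 glands were collected or processed apart from the later ones cannot be told apart from age.

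Most matrix genes were lower than at week 8 in both glands. The median difference of the 16 probe sets from week 8 was -1.99, -1.93 and -1.82 log2 units at weeks 12, 14 and 16 in untreated lacrimal glands, and -1.94, -1.92 and -2.11 in untreated salivary glands. Col1a1, a chain of type I collagen, read 8.40, 8.80, 7.81 and 9.06 in untreated lacrimal glands at week 8, and 5.98, 6.20, 5.33 and 6.02 at week 16. No later lacrimal array of any group reached the week 8 range for this probe set. In salivary glands it read 9.51, 9.93, 10.10 and 9.90 at week 8 and 7.09, 7.10, 6.99 and 7.28 at week 16, again without overlap. Its partner chain Col1a2 read 9.50, 9.90, 8.63 and 9.79 at week 8 in lacrimal glands and 6.80, 6.76, 6.35 and 6.94 at week 16. Col3a1, type III collagen, read 8.88, 9.21, 7.89 and 8.87 at week 8 and 6.45, 6.88, 6.01 and 6.72 at week 16. The third week 8 mouse was the lowest of the 4 for these 3 collagens, and still lay above every untreated array of week 16. Sparc read 10.57, 10.83, 10.33 and 11.04 at week 8 and 8.80, 8.89, 8.63 and 8.96 at week 16.

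Col4a1 and Col4a2, the main chains of basement membrane collagen, Col5a1, the collagen crosslinking peroxidasin Pxdn and Serpinh1 fell with them, with week 16 untreated lacrimal means 1.36 to 2.07 log2 units below week 8. The 16 matrix probe sets are of 11 genes. In untreated salivary glands too, 14 of the 16 were at least 1 log2 unit lower than at week 8 at each of the 3 later ages. Their arrays did not overlap, and 1.92% of all 19617 tested probe sets met the same description. The exceptions were Ntn1, a guidance cue that reads 6.73 and 7.54 as salivary means at weeks 8 and 16, and Fam20b, a kinase of proteoglycan synthesis. Over a list of 24 tested collagens and collagen processing genes, 8 of them members, the median difference from week 8 to week 16 was -0.69 in lacrimal and -1.81 in salivary glands; this list was drawn up after the members had been seen. In lacrimal glands at week 16 the median difference of the list between the 2 treatments was -0.03.

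**Figure D2:**
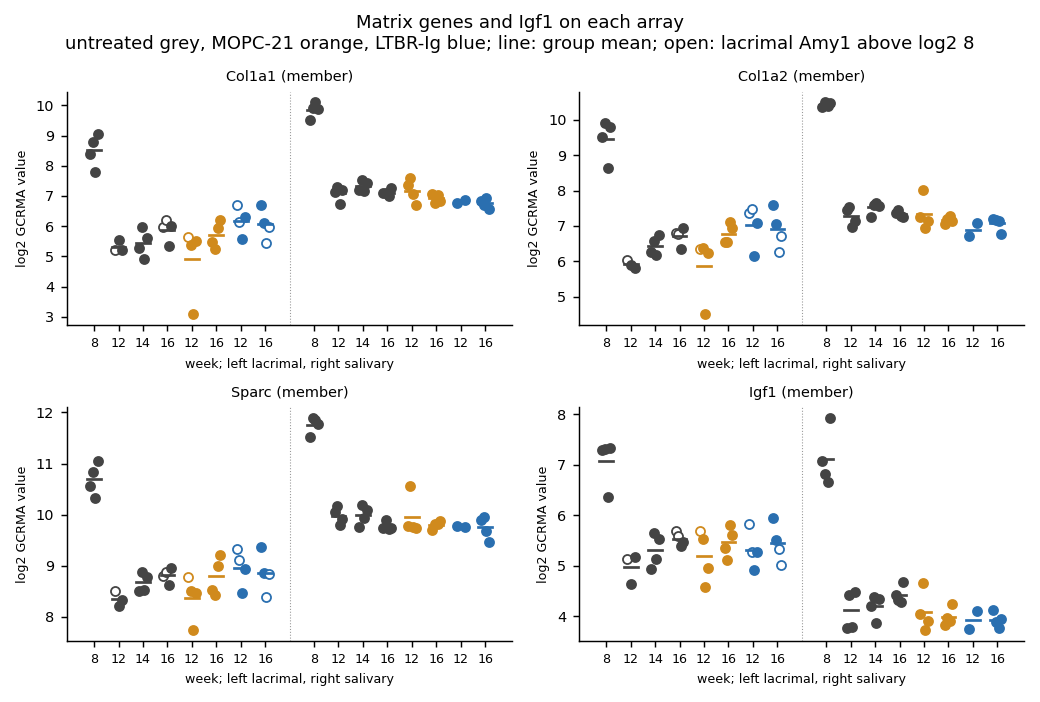
Log2 GCRMA values of Col1a1, Col1a2, Sparc and Igf1 on each array by week, lacrimal glands left of the dotted line and salivary glands right of it; lines are group means, and open points are lacrimal arrays with Amy1 above log2 8. In each panel the untreated week 8 arrays lie above the later ones in both glands, as for Col1a1 with 7.81 to 9.06 at week 8 against 5.33 to 6.20 in untreated lacrimal glands at week 16.

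Igf1, the growth factor that mediates much of the action of growth hormone, behaved like the matrix genes in its member probe sets. One of its probe sets read 7.29, 7.30, 6.36 and 7.33 in lacrimal glands at week 8 and 5.69, 5.60, 5.39 and 5.48 at week 16. Salivary values were 7.07, 6.81, 6.66 and 7.93 at week 8 and 4.42, 4.33, 4.28 and 4.69 at week 16. The groups did not overlap in either gland. Other Igf1 probe sets lay below the level of the rule at week 8. Their untreated lacrimal means went from 4.62 to 3.89 and from 4.58 to 4.67 at week 16. Irs1, the adaptor that carries insulin and IGF signals into the cell, read 6.65, 6.66, 7.37 and 6.54 at week 8 in lacrimal glands and 4.37, 4.25, 4.47 and 4.12 at week 16. In salivary glands Irs1 went from 8.41, 8.13, 8.57 and 8.44 to 9.23, 9.38, 9.23 and 9.11, so its salivary values were higher at week 16. The member probe sets of Igf1 were lower in both glands.

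Among the remaining growth and cytoskeleton genes, Dusp14, a phosphatase of MAP kinases, read 6.25, 5.74, 6.80 and 6.61 at week 8 and 3.47, 3.37, 3.80 and 3.42 at week 16 in untreated lacrimal glands. Prom1, a protein of membrane protrusions, read 6.72, 7.27, 6.81 and 6.57 at week 8 and 4.08, 4.98, 3.64 and 4.50 at week 16. Both were far below their week 8 range at every later age, and Prom1 stayed at a salivary mean of 9.51 at week 8 and 8.71 at week 16. The 3 probe sets of Cald1, an actin-binding regulator of contraction, the 2 of Actn1, an actin crosslinker, and the 2 of Mpzl1, a surface glycoprotein, fell to week 16 by 1.76 to 2.51 log2 units. Of the 16 probe sets, the 2 of Igf1 alone lay at least 1 log2 unit lower in salivary glands with no overlap of arrays. They did so at each of the 3 later ages (1.92% of all tested probe sets). The salivary median difference of the 16 from week 8 was -0.71, -0.65 and -0.80 at weeks 12, 14 and 16.

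Arntl and Nfil3 separated week 8 from every later age in both glands. Arntl read 5.73, 5.57, 6.58 and 6.31 in untreated lacrimal glands at week 8, 3.17, 2.95 and 4.56 at week 12, 4.17, 3.93, 3.37 and 4.33 at week 14, and 3.34, 3.84, 4.20 and 4.26 at week 16. In salivary glands it read 6.83, 6.81, 7.63 and 7.57 at week 8 and 2.78, 2.82, 2.76 and 2.76 at week 16, a difference of -4.43 between means, the largest of any member in that gland. Nfil3 read 8.35, 8.00, 9.07 and 8.36 at week 8 and 5.32, 5.17, 4.85 and 5.42 at week 16 in lacrimal glands. Its salivary values were 9.04, 9.22, 8.92 and 9.00 at week 8 and 5.74, 5.29, 5.32 and 5.73 at week 16. For both genes no later array, treated or not, reached the week 8 range of its gland.

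Of the clock genes outside the members, Dbp, Per3 and Nr1d2 moved the other way, while Npas2, a relative of Clock that pairs with Arntl, moved with the members in salivary glands, from 5.72 to 6.56 at week 8 to 2.64 to 3.73 later. In the clock list, 5 of 14 tested genes had a mean at least 1 log2 unit higher at week 16 than at week 8 in untreated lacrimal glands. Dbp read 5.30 to 6.53 in the 4 lacrimal glands of week 8 and 8.96 to 10.5 on the 27 later arrays. In salivary glands it read 3.78 to 5.17 at week 8 and 9.54 to 11.0 later. Per3, a clock repressor, read 4.16 to 5.53 and later 5.98 to 7.21 in lacrimal glands, and 3.28 to 4.49 and later 6.27 to 8.11 in salivary glands. Nr1d2, which binds the ROR element as a repressor, read 9.66 to 9.99 and later 10.6 to 11.6 in lacrimal glands. The 2 members with that element in their promoter were low in the arrays where Nr1d2, Dbp and Per3 were high. Any action of Nr1d2 on these 2 genes was not tested. This list of 16 clock genes, of which 14 were tested in lacrimal glands, was drawn up after the members had been seen, and the time of day at which the glands were collected is not given in the sources used here; its part in these values was not tested.

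**Figure D3:**
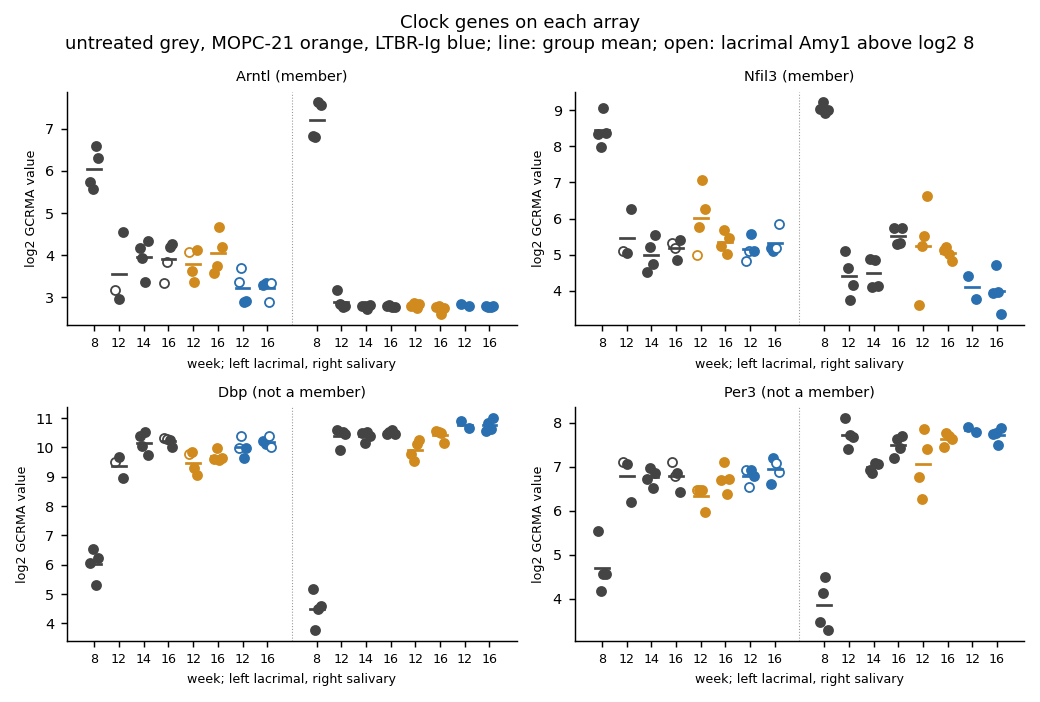
Log2 GCRMA values of the members Arntl and Nfil3 and of Dbp and Per3, which are not members, on each array by week, lacrimal glands left of the dotted line and salivary glands right of it; lines are group means, and open points are lacrimal arrays with Amy1 above log2 8. Week 8 lies high for Arntl and Nfil3 and low for Dbp and Per3 in both glands, as for lacrimal Dbp at 5.30 to 6.53 against 8.96 to 10.5 later.

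Stimulus-induced genes of the same group included Nr4a2, an orphan nuclear receptor that is switched on quickly by cAMP and calcium, with 4 member probe sets, and Crem, a cAMP-responsive transcription factor. The brightest Nr4a2 probe set read 9.26, 9.03, 9.24 and 9.10 at week 8 and 7.41, 7.17, 7.08 and 7.15 at week 16 in lacrimal glands. Noct, a rhythmically expressed NADP phosphatase, read 11.30, 11.38, 11.39 and 11.60 at week 8 and 10.03, 9.25, 9.75 and 9.74 at week 16, while its salivary means were 9.91 and 10.04. The inducible heat shock protein Hspa1b, with 3 member probe sets, fell by 1.65 to 1.88 log2 units to week 16; it has a near-identical copy, Hspa1a, whose transcripts these probe sets may also read. The 11 probe sets of this group are of 6 genes. In untreated salivary glands 7 of the 11 were at least 1 log2 unit lower with no overlap of arrays. This held at each of the 3 later ages (1.92% of all tested probe sets).

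Among secreted products, Mup5 fell the most of all members at week 14 and week 16. It read 11.46, 11.28, 12.08 and 12.08 at week 8, 6.73, 10.22 and 6.50 at week 12, 7.33, 6.12, 7.11 and 5.99 at week 14, and 9.99, 7.23, 5.66 and 6.84 at week 16. Amy1 read 14.4 on the array at 9.99 and 6.31 on the array at 10.22. In salivary glands Mup5 read 13.73, 14.08, 14.39 and 14.40 at week 8 and 10.79, 10.18, 10.80 and 10.17 at week 16. The major urinary protein genes are near-identical copies of each other, so which of them this probe set reads is uncertain. Car6 read 14.31, 14.16, 14.59 and 14.66 at week 8 and 13.43, 14.62, 11.82 and 12.16 at week 16, and thus overlapped week 8 on an array with Amy1 above log2 8. Its salivary values stayed at 15.39 to 15.46 and 15.18 to 15.30 at the same ages.

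B4galt1, a galactosyltransferase of the Golgi, fell from 8.67, 8.44, 9.09 and 8.97 at week 8 to 5.37, 5.37, 5.41 and 5.97 at week 16 in lacrimal glands, and from a mean of 7.56 to 7.13 in salivary glands. Mia, a small secreted protein that binds matrix, read 7.62, 8.16, 8.38 and 7.11 at week 8 and 4.75, 4.43, 4.38 and 4.88 at week 16. Sult1d1, a sulfotransferase, read 8.20, 8.32, 8.26 and 7.54 at week 8 and 3.92, 4.33, 3.58 and 4.11 at week 16, and lay at a salivary mean of 3.28 and 3.26. These 3 fell by at least 3.04 log2 units at each of weeks 12 and 14 and did not move comparably in the salivary glands. Dmbt1, a secreted scavenger protein of mucosal surfaces, went from a mean of 11.59 to 9.39, and Rrbp1, a ribosome-binding protein of the endoplasmic reticulum, from 11.62 to 9.95. Other Rrbp1 probe sets, which are not members, went from 11.21 to 9.89, from 6.09 to 5.67 and from 10.21 to 10.09. The size of the Rrbp1 fall thus depends on the probe set. Of the 31 tested genes of protein folding in the endoplasmic reticulum none was a member, and their median difference from week 8 to week 16 was -0.56.

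The 7 amino acid probe sets had a median difference from week 8 of -1.54, -1.60 and -1.73 log2 units at weeks 12, 14 and 16. Slc7a5, the large neutral amino acid transporter, read 11.03, 11.14, 11.03 and 10.70 at week 8 and 9.46, 9.27, 9.21 and 8.91 at week 16 in lacrimal glands. Asns, asparagine synthetase, read 10.21, 10.57, 10.44 and 10.47 at week 8 and 9.00, 9.24, 8.59 and 8.15 at week 16. Aldh1l2, the mitochondrial formyltetrahydrofolate dehydrogenase, read 9.00, 8.92, 9.27 and 9.12 at week 8 and 7.40, 7.19, 6.76 and 6.12 at week 16. None of the 3 overlapped between these ages. Arg2, an arginase, Chdh, a choline dehydrogenase, Gpt2, an alanine transaminase, and Slc25a13, the aspartate-glutamate carrier of mitochondria, completed the group. Slc25a13 alone of the 7 was at least 1 log2 unit lower in salivary glands at each of the 3 later ages, with no overlap. The salivary median difference of the 7 from week 8 was -0.25, -0.31 and -0.34 at weeks 12, 14 and 16. The salivary means of Asns were 11.43 at week 8 and 11.11 at week 16.

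Lipid members included Fdft1, squalene synthase, Pmvk, phosphomevalonate kinase of the same pathway, Gpd1, glycerol-3-phosphate dehydrogenase, Lgals12, a galectin of lipid droplets, and Acsl4, a ligase of long-chain fatty acids. A Fdft1 probe set read 7.38, 7.52, 7.93 and 7.64 at week 8 and 5.51, 5.49, 5.26 and 5.65 at week 16 in lacrimal glands, against salivary means of 8.04 and 7.87. Of 32 tested genes of lipid and cholesterol synthesis, Fdft1 alone was a member, and the median difference of the list was -0.39. Acot1, an acyl-CoA thioesterase, fell in both glands, with salivary values of 7.57, 7.13, 8.33 and 7.39 at week 8 and 5.47, 5.92, 6.04 and 5.43 at week 16. Transport and junction members, such as Slc16a1, a monocarboxylate transporter, Folr1, a folate receptor, and Gjb1, a gap junction protein, fell to week 16 by 1.53 to 2.46 log2 units. None of the 8 tested in salivary glands was at least 1 log2 unit lower there with no overlap at all 3 ages. Their median difference from week 8 there was -0.45, -0.60 and -0.51 at weeks 12, 14 and 16. Transcription members included Elf5, an epithelial factor, Tfap2b and Id4.

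In untreated salivary glands as a whole, 109 of the 115 members could be tested. Of these 30, for 22 genes, were at least 1 log2 unit below week 8 with no overlap of arrays at weeks 12, 14 and 16 alike, against 1.92% of all 19617 tested probe sets. The week 8 salivary level entered the rule as an upper limit on the difference between glands, so this count is a description. Besides the 14 matrix and 7 clock and stimulus-induced probe sets, the 30 were those of Igf1, Mup5, Slc25a13, Hacd1, Acot1, Mbnl3, Elf5 and Lnx2. Acsm1, an acyl-CoA synthetase, and Nudt4, a phosphatase of inositol polyphosphates, went the other way. Acsm1 read 2.87, 2.81, 4.22 and 3.39 at week 8 and 5.78, 6.22, 5.59 and 5.59 at week 16 in salivary glands. The remaining 77 met neither description. Means below week 8, by any amount, were held by 94, 92 and 90 of the 109 members at weeks 12, 14 and 16. The median difference of the 109 was -0.66, -0.61 and -0.60, against -0.09, -0.03 and -0.04 over all tested probe sets. Between untreated weeks 12 and 16 of the salivary glands, limma called none of the 109 (0.0102% of all probe sets). At an unadjusted p under 0.05, 7 were higher and 9 lower (10.3% of all in either direction).

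**Figure D4:**
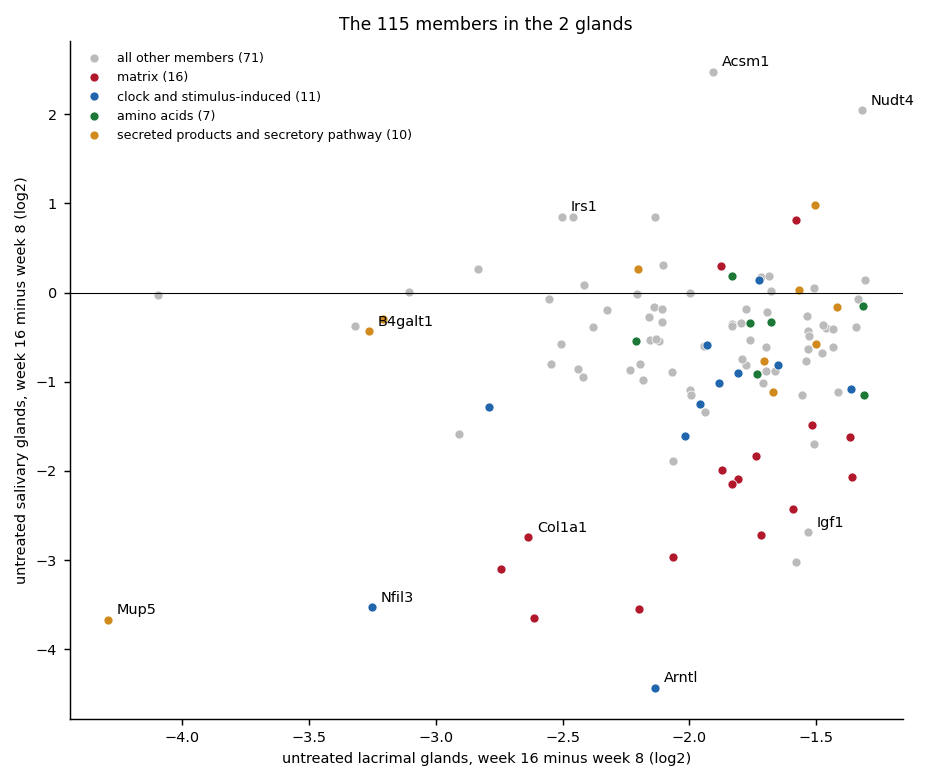
Difference of untreated group means, week 16 minus week 8, in log2 units for each of the 115 members, lacrimal glands on the horizontal axis and salivary glands on the vertical axis, coloured by role; 6 of the members did not pass the low-value filter in salivary glands. Every member lies left of -1.3 by the rule, while in salivary glands 14 of the 16 matrix members lie below -1, Arntl lies at -4.43 and Acsm1 at 2.48.

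Neither treatment left the members at their week 8 level. Against untreated week 8 lacrimal glands, 108 of 115 members were at least 1 log2 unit lower with no overlap of arrays in MOPC-21-treated mice at week 12 (3.38% of all 20077 tested probe sets) and 113 at week 16 (5.49%). In LTBR-Ig-treated mice the counts were 113 at week 12 (4.21%) and 106 at week 16 (2.43%). The week 8 arrays chose the members, so these counts are descriptions and nothing is read from the contrast with all probe sets. The median difference of the members from week 8 was -1.79 and -1.90 under MOPC-21 and -1.74 and -1.63 under LTBR-Ig at weeks 12 and 16. All 115 LTBR-Ig week 16 means lay below the week 8 means. In salivary glands at week 16 the counts were 34 of 109 in untreated (2.79% of all), 32 in MOPC-21-treated (2.82%) and 38 in LTBR-Ig-treated mice (3.38%), with 2, 4 and 4 higher.

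The comparison of LTBR-Ig with MOPC-21 used none of the arrays that chose the members and asked whether the decoy receptor changed their level. At week 16 in lacrimal glands, limma called 7 of the 115 members at a fold of at least 2 and a Benjamini-Hochberg adjusted p under 0.05 (6.09%, against 5.88% of all 20077 probe sets). Of these 5 were higher under LTBR-Ig (4.35% of members, 0.339% of all) and 2 lower (1.74% of members, 5.54% of all). With the arrays quantile normalized or centred on their medians, 9 members were called higher and 0 lower. Of all probe sets, 5.08% and 4.84% were then called in either direction. The median difference of the members was 0.29 log2 units, that of all probe sets -0.05, and 83 of the 115 members lay above 0 (44.5% of all probe sets did). Without the MOPC-21 mouse of replicate number 3, 1 member was called (0.478% of all probe sets). Without the lacrimal arrays with Amy1 above log2 8, 1 member was called (0.11% of all probe sets). Those arrays included the LTBR-Ig mice of week 16 with replicate numbers 3 and 4. The member called was Aplnr in both. The median difference of the members was 0.14 without that MOPC-21 mouse and 0.26 without those Amy1 arrays.

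Aplnr, the apelin receptor, which is found on endothelium and on other cells, read 5.66, 5.20, 4.55 and 4.59 in LTBR-Ig-treated and 3.52, 3.88, 3.06 and 3.63 in MOPC-21-treated lacrimal glands at week 16. All 4 treated arrays lay above all 4 control arrays and below the week 8 arrays, which read 6.87, 6.58, 5.79 and 6.76. The difference was 1.48 ± 0.29 log2 units (SE, limma, adjusted p = 0.00524, n = 4 and 4). At week 12 it was 0.83 ± 0.29 (limma adjusted p = 0.37), and in salivary glands at week 16 it was 0.71 ± 0.26 (limma adjusted p = 0.64). Neither passed the test. All 4 MOPC-21 values of week 16 lay below log2 4, the low-value limit used here. Another Aplnr probe set, not a member, had untreated lacrimal means of 3.23 at week 8 and 2.63 at week 16.

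Lgals12 read 6.02, 5.92, 5.73 and 6.12 under LTBR-Ig and 4.81, 5.11, 4.25 and 5.21 under MOPC-21 at week 16, between the later untreated level and the week 8 arrays at 7.10, 6.95, 6.72 and 6.68. The difference was 1.10 ± 0.22 log2 units (SE, limma adjusted p = 0.00524). The groups did not overlap. Without the third MOPC-21 mouse, or without the arrays with Amy1 above log2 8, it was no longer called.

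Of the 7 amino acid probe sets, 2 were called higher under LTBR-Ig, those of Slc7a5 and Aldh1l2, and 5 lay above 0; Arg2 was at -0.08 and Chdh at -0.01. Slc7a5 read 9.89, 10.09, 9.73 and 10.30 under LTBR-Ig and 9.45, 9.70, 7.85 and 8.99 under MOPC-21 at week 16 (difference 1.01 ± 0.30 log2 units, limma adjusted p = 0.0222). Aldh1l2 read 7.28, 7.43, 7.79 and 8.08 under LTBR-Ig and 7.05, 7.17, 5.23 and 6.34 under MOPC-21 (1.20 ± 0.39, limma adjusted p = 0.0315). For both genes the third MOPC-21 mouse was the lowest, and the groups were separated by a narrow gap. Asns read 9.06, 8.95, 9.44 and 9.56 against 8.53, 8.98, 7.09 and 8.52, a difference of 0.98 ± 0.29 log2 units (limma adjusted p = 0.0226) that missed the 2-fold limit. Of a list of 22 tested amino acid response genes, 4 of them members and drawn up after the members had been seen, 4 were called higher (Slc7a5, Aldh1l2, Chac1 and another probe set of Asns), with a median difference of 0.30.

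Car6 read 13.29, 13.14, 14.25 and 12.75 under LTBR-Ig and 11.44, 11.68, 12.00 and 11.89 under MOPC-21 at week 16, a difference of 1.603 ± 0.50 log2 units (SE, limma adjusted p = 0.0261) with no overlap. It belongs to the salivary gland products, of which 11 of 16 tested were called higher under LTBR-Ig in these lacrimal glands, with a median difference of 4.54. The mean level of that list was 8.10 to 11.7 on the LTBR-Ig arrays, 4.83 to 6.58 on the MOPC-21 arrays and 5.78 to 5.98 at week 8. The part of salivary gland RNA in the Car6 value was not tested further; without the arrays with Amy1 above log2 8, Car6 was not called.

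Cldn2 and B4galt1 were lower under LTBR-Ig, and both had already fallen with age. Cldn2, a claudin of leaky epithelial junctions, read 5.03, 4.85, 3.36 and 4.37 under LTBR-Ig and 5.52, 5.53, 6.98 and 5.35 under MOPC-21 (difference -1.44 ± 0.52 log2 units, limma adjusted p = 0.0474). B4galt1 read 5.92, 4.66, 3.90 and 4.60 against 6.28, 5.76, 6.37 and 5.19 (-1.13 ± 0.39, limma adjusted p = 0.0385). The Cldn2 groups did not overlap, while those of B4galt1 did. Neither was called without the third MOPC-21 mouse, nor after quantile normalization or centring of the arrays on their medians.

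**Figure D5:**
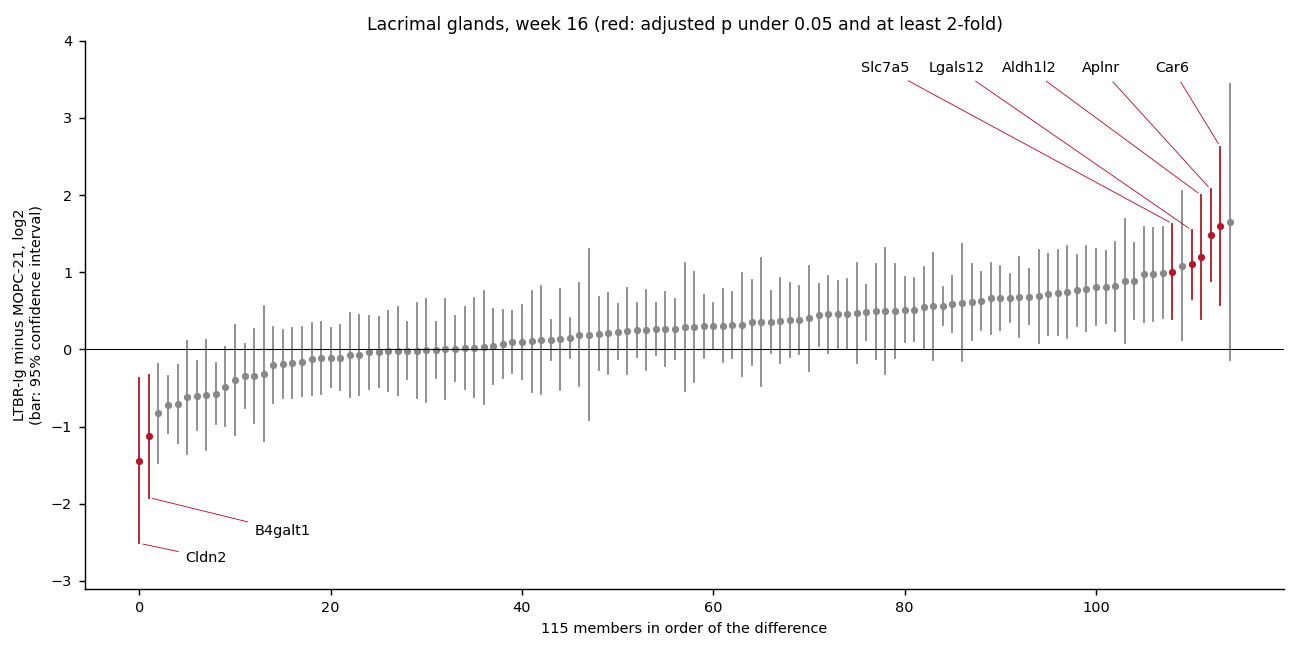
Difference between LTBR-Ig-treated and MOPC-21-treated lacrimal glands at week 16 in log2 units, for the 115 members in order of the difference, with 95% confidence intervals from limma; red marks members called at an adjusted p under 0.05 and at least 2-fold. The 5 members called higher and the 2 called lower lie at the ends, and the median is 0.29.

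By role, the median week 16 difference of LTBR-Ig from MOPC-21 was 0.79 log2 units for the 7 amino acid probe sets, 0.57 for transport and junctions, 0.48 for secreted products, 0.37 for the cytoskeleton and growth group and 0.29 for lipids. It was 0.08 for the 16 matrix probe sets and -0.01 for the 11 clock and stimulus-induced ones. Limma called none of either group. At an unadjusted p under 0.05, 1 matrix probe set was higher, and 1 clock and stimulus-induced probe set was higher and 1 lower. Of all probe sets, 38.9% passed that unadjusted limit in either direction. Relative to the fall that MOPC-21-treated glands showed from untreated week 8, the LTBR-Ig difference amounted to a median of 14.3% (range -140% to 64.2%). The week 8 arrays in this ratio chose the members, and the MOPC-21 mean enters both of its parts. The ratio is therefore a description. Mup5 had the highest difference of all members, 1.65 log2 units with a 95% confidence interval from -0.14 to 3.45, and did not pass the test (limma adjusted p = 0.16). Arntl was at -0.83 ± 0.31 (limma adjusted p = 0.055), and Nfil3 at -0.01 ± 0.33 with an interval from -0.68 to 0.65.

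B cell genes differed between the treatments in the same glands: all 12 tested were called lower under LTBR-Ig, with a median difference of -2.32 log2 units, and the mean of the list was 4.43 to 6.98 on the LTBR-Ig arrays against 6.97 to 8.85 on the MOPC-21 arrays. Their part in the member differences was not tested.

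The other comparisons of treated mice called no member. At week 12 in lacrimal glands, limma called 0 of 115 between LTBR-Ig and MOPC-21 (0.0498% of all probe sets). At an unadjusted p under 0.05, 15 were higher and 9 lower, and 8.83% of all probe sets passed in either direction. Matrix probe sets made up 10 of those higher and 1 of those lower, and the 16 had a median difference of 0.60 log2 units. Clock and stimulus-induced probe sets made up 5 of those lower and 0 of those higher, and the 11 had a median difference of -0.56. Between weeks 12 and 16 limma called 0 under MOPC-21 (0% of all) and 0 under LTBR-Ig (0.00996% of all). Unadjusted, 11 were higher and 14 lower under MOPC-21 (13.2% of all in either direction). Under LTBR-Ig 13 were higher and 2 lower unadjusted (9.68% of all in either direction). The test of whether the treatment difference changed from week 12 to week 16 called 0 members (0% of all). At an unadjusted p under 0.05, 17 lay above and 10 below (15.6% of all in either direction). The difference at week 16 was therefore not shown to differ from that at week 12. In salivary glands limma called 0 of 109 at week 16 (0.0357% of all) and 0 at week 12 (0.0306% of all). The salivary LTBR-Ig group of week 12 had 2 arrays. Unadjusted, 4 were higher and 9 lower at week 16 (5.71% of all in either direction). At week 12, 5 were higher and 9 lower unadjusted (12.3% of all in either direction). The MOPC-21 salivary array of week 12 with replicate number 2 stood apart, with a Gapdh 3′ probe set 3.90 log2 units above its 5′ one, and without it limma called 0 members in each salivary comparison as well.

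The treatment difference at week 16 was then set against the same difference in salivary glands, in a fit over all 61 arrays. For 3 members it was larger in the lacrimal glands (2.61% of members; 2.93% of all 21626 probe sets were called in either direction and 0.319% higher). They were Aldh1l2, with a difference between the glands of 1.42 ± 0.43 log2 units (SE, limma adjusted p = 0.0471), Lgals12, with 1.10 ± 0.27 (limma adjusted p = 0.0191), and Slc25a13, with 1.23 ± 0.33 (limma adjusted p = 0.0296). Slc25a13 read 7.17, 7.30, 7.35 and 7.53 under LTBR-Ig and 7.29, 7.14, 5.56 and 6.21 under MOPC-21 in lacrimal glands, and 4.21, 3.95, 4.33 and 4.20 against 4.96, 4.56, 4.52 and 4.41 in salivary glands. Its lacrimal groups overlapped and its salivary groups did not. Without the third MOPC-21 lacrimal mouse of week 16, none of the 3 was called.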

How the data were processed

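Total RNA of each gland was amplified and labelled with NuGEN Ovation reagents and hybridised to the array. The authors normalized the scans with GCRMA, which corrects background from probe sequence, quantile normalizes and summarises each probe set; the deposited values are log2 values, and the GCRMA version is not given in the sources used here. Brightness is relative, so levels of different genes were not compared, and the number of arrays limits the precision.

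Here, probe sets above 4 on at least 2 arrays of a group were kept (20077 lacrimal, 19617 salivary, 21626 jointly; all 115 members passed in lacrimal and 109 in salivary glands). A mean per group was fitted by limma 3.58.1 (R 4.3.3) with an intensity trend over all arrays of a gland, and p-values were adjusted by Benjamini-Hochberg over all kept probe sets. Replicates within a group were separate mice. The fit was tested on simulated data. Contrasts that shared arrays with the member rule were described, not tested.

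Named genes were those with the largest falls, those at the limit of the rule, the brightest, those called or most different under LTBR-Ig, and up to 4 per gene list. The members and lists were chosen with earlier results of these data known, and the clock, amino acid response and collagen lists, the roles and the motifs after values had been seen.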

Additional observations from a re-analysis of the deposited data

Results flagged for a closer look

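Within groups of 4 arrays, 112 groups of members were examined for an array far from the other 3, and 7 were found, where chance gives about 1 in 20. Cldn2 lay at 6.98 on an MOPC-21 array of lacrimal glands at week 16. B4galt1 lay at 5.97 on an untreated array of week 16. Nfil3 lay at 5.84 and Arntl at 2.89 on LTBR-Ig arrays of week 16, and on different arrays. Col1a1 lay at 3.08 and Col1a2 at 4.51 on the third MOPC-21 array of week 12. Irs1 lay at 7.37 on the third untreated array of week 8. For 3 members the week 16 effect of LTBR-Ig relative to MOPC-21 differed between the glands by limma: Aldh1l2 by 1.42 log2 units, Lgals12 by 1.10 and Slc25a13 by 1.23.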

How the results depend on the processing

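In lacrimal glands at week 16, LTBR-Ig against MOPC-21 called 7 members (5.88% of all probe sets). It called 3 with the compared groups alone (0.961% of all) and 0 by the posterior rule of the methods (0.224% of all). With no minimum fold it called 28, of which 23 were higher (22.3% of all), and with array weights 4 (5.45% of all). In an alternative chosen after seeing the data, it called 1 without arrays with Amy1 above log2 8 (0.11% of all). Leaving out each array in turn gave 1 to 11. It was 1 without the third MOPC-21 mouse (0.478% of all) and 11 without the second (8.28% of all). It was 3 without LTBR-Ig replicate 3 or 4 (1.63% and 3.97% of all). Aplnr had the fewest losses: its difference was 1.26 to 1.91 log2 units over the 19 alternatives, with a highest limma adjusted p of 0.048, and it was lost under the posterior rule. No called gene changed direction under any alternative run. In salivary glands at week 16, 1 was called with the compared groups alone (0.219% of all) and 2 with array weights (0.26% of all). At week 12 leaving out arrays gave 0 to 2. It was 2 without LTBR-Ig replicate 4 (0.316% of all) and 1 without MOPC-21 replicate 1 (0.153% of all). Between untreated salivary weeks 12 and 16 array weights called 1. The difference between glands called 3 members, but 1 with no filter on low values, 0 by the posterior rule, 6 with no minimum fold, 1 without arrays with Amy1 above log2 8, and 0 to 7 when arrays were left out in turn (0 without the third MOPC-21 lacrimal mouse, 7 without the second, 6 without the first LTBR-Ig lacrimal mouse, and 1 without LTBR-Ig lacrimal replicate 3 or 4, LTBR-Ig salivary replicate 2 or 4 or MOPC-21 salivary replicate 1). The 4 other lacrimal comparisons called 0 under every alternative run. The number of members, 115, was 261 with a fall of at least 1.0, 53 with at least 1.6, 44 with a week 8 mean above 8, and 91 to 127 when arrays were left out. The cause of these shifts was not tested.

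Between LTBR-Ig and MOPC-21 lacrimal arrays of the same number, the deviations from the group means correlated from -0.51 to 0.51, with both signs. Between lacrimal and salivary arrays of the same number and treatment at week 16, the correlations ran from -0.01 to 0.08. The numbers were not taken as pairs. The labels do not say whether same-numbered lacrimal and salivary arrays came from 1 mouse. With the replicate number as a block, LTBR-Ig against MOPC-21 at week 16 called 7 members (6.03% of all lacrimal probe sets). The difference between glands then called 3.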
